A study of Homo sapiens with 4 samples.

Results

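Cytosolic ribosomal protein mRNAs encode the proteins of the ribosome that works in the cytoplasm. The members were chosen by gene symbol (RPL or RPS with a number and at most 1 letter, or RPLP0, RPLP1, RPLP2 or RPSA) and by their measured counts, with a minimum of 1000 in each library. The rule gave 74 of the 56303 features of the table, 46 for the large subunit (RPL) and 28 for the small subunit (RPS). The level of the members was used in the choice and is no finding, whereas no ratio between libraries entered the choice. The cells were Huh7, an established hepatocellular carcinoma line, transfected with a plasmid for a hairpin against RBM39 (shRBM39) or with a control hairpin (shControl). RBM39 is a nuclear RNA-binding protein that takes part in splicing. For each hairpin there was an input library and a library of RNA recovered with an RBM39 antibody (IP), which makes 4 groups of 1 library. The labels link input and IP by the hairpin name alone, and culture below stands for the 2 libraries of a hairpin. No library made with a control antibody was analysed here. In the text below, recovery is the ratio of IP over input within a culture.

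The ribosome has a large subunit, which forms peptide bonds, and a small subunit, which reads the mRNA. Its proteins are made in matched amounts, and their mRNAs are short, abundant and stable. Most of these mRNAs begin with a C followed by a run of pyrimidines, the 5′ terminal oligopyrimidine (TOP) tract, through which mTOR and LARP1 control their translation together. Many of the genes carry small nucleolar RNAs (snoRNAs) in their introns, and most have processed pseudogenes elsewhere in the genome.

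The TOP tract could be read directly at the starts that RefSeq lists on GRCh38. Of the 74 members, 59 had a listed start, and 45 of these (76.3%) had a start with C followed by at least 4 pyrimidines (C or T) on the gene's own strand. Over all 27305 genes with a listed start the share was 5.14%. The windows below span 20 bases before the start and the first 10 bases of the transcript, 5′ to 3′, with the pyrimidine run from the start in capitals. The first 6 belong to members that were lower in the IP and the last 4 to members that were not, so that the starts of both kinds can be set side by side.
RPLP1 (chr15:69452798-69452827, plus strand): gctgcgtataggcgcgagagCCCCTTTCCT
RPS12 (chr6:132814549-132814578, plus strand): ggcatgcgtgcggatgaggcCTCTTTCCCT
RPLP0 (chr12:120201102-120201131, minus strand): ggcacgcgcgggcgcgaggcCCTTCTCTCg
RPL12 (chr9:127451397-127451426, minus strand): cttgtccgcgcgatttccggCCTCTCggct
RPL41 (chr12:56116613-56116642, plus strand): gtagacggaacttcgcctttCTCTCggcct
RPS27 (chr1:153990742-153990771, plus strand): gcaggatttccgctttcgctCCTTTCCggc
RPLP2 (chr11:809947-809976, plus strand): gcctcttgcgtcggcgccttCCTTTTCCTC
RPS9 (chr19:54200838-54200867, plus strand): cagccgtggcgcttccgcgcCTCTTTCTCa
RPS3 (chr11:75399498-75399527, plus strand): cttccgcccgcgagccacttCCTTTCCTTT
RPL3 (chr22:39319614-39319643, minus strand): gacccgtaaggccgaccggcCTCTaccggc
Both kinds hold long runs, and runs over 10 bases go on past the window. Among the TOP starts shown, the shortest runs belong to members that were lower in the IP. RPL36, which is not shown and was not called lower, has a TOP run of 6 bases. The run is 11 bases in RPLP1 and RPS3, 13 in RPLP2, 5 in RPL41 and 4 in RPL3, which is 1 base short of the definition.

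Total counts were 20858382 for the shControl input, 22249581 for the shRBM39 input, 41387762 for the shControl IP and 45812488 for the shRBM39 IP. Each member had 1080 to 134745 counts in a library. With 1 library per group there is no replicate check. The 95% intervals given cover counting error alone, and levels are in CPM, counts scaled to a common library size with TMM. Calls of lower or higher need a 2-fold change (a log2 ratio of 1) and an interval that excludes equality, and were made over the 19201 features that reached 10 counts in 2 or more libraries. All 10 hepatocyte markers were measured, with albumin (ALB) at 2964 CPM and AFP at 2691 CPM in the shControl input, and their median log2 IP over input was -0.37 in shControl and -1.10 in shRBM39 cells. Of 14 leukocyte, endothelial and stromal markers 6 passed the filter (LYZ, CD68, PECAM1, PDGFRB, CD14 and COL1A1). LYZ, which encodes lysozyme, was the highest, with 396 CPM in the shControl and 273 CPM in the shRBM39 input, CD68 had 14.6 and 16.2 CPM, PECAM1 6.03 and 8.60 CPM, and KDR and DCN had 0 counts in all 4 libraries; the part of such RNA in the results was not tested. RBM39 mRNA itself had 404 CPM (input) and 1036 CPM (IP) in shControl cells and 370 CPM (input) and 2222 CPM (IP) in the cells labelled shRBM39, so the inputs differed by -0.13 on the log2 scale and shRBM39 stands for the label of these libraries throughout. Mitochondrial transcripts made up 2.96% and 2.12% of the input counts and 0.254% and 0.316% of the IP counts, and the 7SK and 7SL RNAs 6.74% and 4.31% of the input counts against 0.203% and 0.369% of the IP counts.

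As a group, ribosomal protein mRNAs took a smaller share of the counts in the IPs than in the inputs, and a smaller share in the cells labelled shRBM39. They made up 6.24% of the counts of the shControl input (6.23 to 6.25, exact binomial interval of counting error) and 5.66% of the shControl IP (5.65 to 5.67). In the shRBM39 cells they made up 5.04% of the input (5.03 to 5.05) and 4.62% of the IP (4.62 to 4.63). The share was therefore highest in the shControl input and lowest in the shRBM39 IP. Large subunit mRNAs held 4.50%, 4.14%, 3.73% and 3.50% of the counts in the same order of libraries, and small subunit mRNAs 1.74%, 1.52%, 1.32% and 1.12%. These shares also move with the RNAs that fill the rest of a library, such as the mitochondrial and 7SK and 7SL RNAs, whose part in them was not tested. After TMM scaling the summed level of the members was 60362 CPM (input) and 51826 CPM (IP) for shControl and 51587 CPM (input) and 51165 CPM (IP) for shRBM39, so on that scale 3 libraries were close and the shControl input stood above them.

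The first comparison asked how these mRNAs were recovered with the RBM39 antibody from shControl cells. Most lay within 0.5 of 0 on the log2 scale, more were below 0 than above it, and 7 were called lower: RPLP1, RPS12, RPLP0, RPL41, RPL12, RPL23A and RPS27. None of the 74 was called higher. Over all 19201 features 11.3% were called lower and 7.7% higher, and over the 3692 features that also had at least 1000 counts in each library 6.28% and 5.69%. The 7 lower members are 5 of the large and 2 of the small subunit, a share between those backgrounds. The median log2 recovery was -0.15, with a range of -1.73 to 0.55, against -0.005 for all features and 0.03 for those from 1000 counts; with low features left in, the order turns, with -0.06 for the members and -0.17 for all features. Within 0.5 of 0 on the log2 scale lay 53 of the 74. The middle 50% of features ran from -0.56 to 0.50 over all and from -0.42 to 0.46 over those from 1000 counts. Below 0 were 48 of the 74 (64.9%), against 50.3% over all features and 48.6% over those from 1000 counts. The counting interval lay below 0 for 45 members and above 0 for 24, against 6347 and 6547 of all 19201 features.

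**Figure D1:**
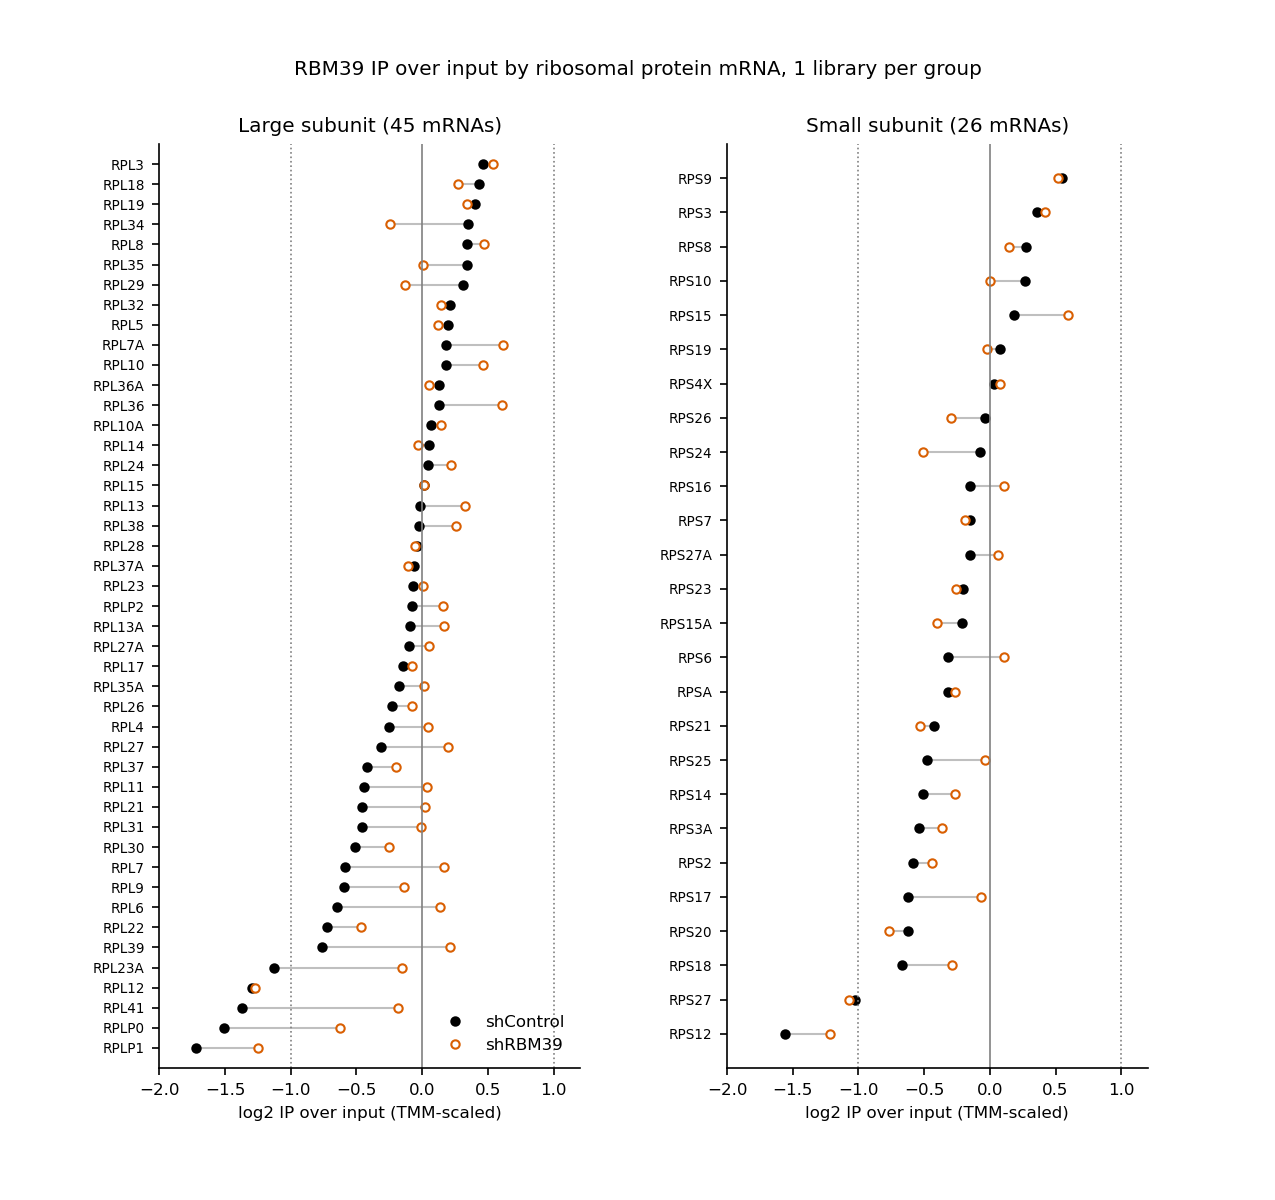
Log2 IP over input (horizontal axis, TMM-scaled) of 71 of the 74 ribosomal protein mRNAs (vertical axis), large subunit on the left and small subunit on the right, ordered by the value in shControl cells. Filled points are shControl, open points shRBM39, 1 library pair each; dotted lines mark 2-fold. In shControl cells 7 filled points lie beyond 2-fold lower and 0 beyond 2-fold higher.

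The proteins of the P-stalk, the flexible arm of the large subunit that recruits the translation factors, had 3 of the lowest mRNAs. RPLP0 (chromosome 12, 120196699 to 120201111) and RPL12 (chromosome 9, 127447674 to 127451406) form the base of the stalk, and RPLP1 (chromosome 15, 69452818 to 69456205) and RPLP2 (chromosome 11, 809967 to 812876) are its acidic arms. RPL12 was joined to the stalk group after its values were seen. RPLP1 went from 1064 CPM (input) to 322 CPM (IP) in shControl cells and from 763 to 321 CPM in shRBM39 cells. Both IPs lay below both inputs. Here and below such an order is a description, as the share of all features that have it was not counted. RPLP1 was 3.31 times lower in the IP of shControl cells (log2 -1.73, -1.76 to -1.70) and 2.37 times lower in that of shRBM39 cells (log2 -1.25, -1.28 to -1.21).

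RPL12 had 1636 and 1326 CPM in the inputs (shControl, then shRBM39) and 667 and 549 CPM in the IPs. Again both IPs were below both inputs, and the recovery was nearly equal in the cultures, at 2.45 times lower (log2 -1.29, -1.32 to -1.27) and 2.41 times lower (log2 -1.27, -1.30 to -1.25). RPLP0 had 1636 and 1019 CPM in the inputs and 574 and 659 CPM in the IPs, with a recovery of -1.51 (-1.53 to -1.49) and -0.63 (-0.65 to -0.60) on the log2 scale, so it passed 2-fold in shControl cells only. The partner of RPLP1 in the same stalk dimer, RPLP2, did not share this. RPLP2 had 964 and 759 CPM in the inputs and 913 and 849 CPM in the IPs, with a log2 recovery of -0.08 (-0.10 to -0.05) and 0.16 (0.14 to 0.19). Its input and IP levels overlap between the cultures.

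Of the small subunit, RPS12, a protein of the beak of the head, and RPS27, a zinc finger protein, were lower in both IPs. RPS12 (chromosome 6, 132814569 to 132817564) stood at 611 and 406 CPM in the inputs (shControl, then shRBM39) and at 207 and 174 CPM in the IPs, which is 2.95 and 2.33 times lower (log2 -1.56, -1.60 to -1.52, and -1.22, -1.26 to -1.17). RPS27 (chromosome 1, 153990762 to 153992155) had 159 and 210 CPM in the inputs and 78.0 and 100 CPM in the IPs. Its log2 recovery of -1.03 (-1.09 to -0.96) and -1.07 (-1.13 to -1.01) lies close to the threshold, and the call in shControl cells is lost with libraries scaled to total counts (-0.95). For both genes each IP was below each input.

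RPL41, the smallest ribosomal protein, and RPL23A, which sits beside the exit of the peptide tunnel, were called lower in the shControl IP only. Both were also below 0 in shRBM39 cells, by less than 2-fold. RPL41 (chromosome 12, 56116633 to 56117967) had 242 and 138 CPM in the inputs (shControl, then shRBM39) and 93.5 and 122 CPM in the IPs. Its recovery was -1.37 (-1.43 to -1.31) in shControl cells and -0.18 (-0.25 to -0.12) in shRBM39 cells. RPL23A (chromosome 17, 28719985 to 28724359) had 3231 and 2348 CPM in the inputs and 1482 and 2107 CPM in the IPs, a recovery of -1.12 (-1.14 to -1.11) and -0.16 (-0.17 to -0.14). In both genes the shControl input was highest and the shControl IP lowest, with both shRBM39 libraries between them. Pseudogenes named for RPL23A held 3.91% of the counts of the gene and its copies together, so some of its reads may be placed elsewhere.

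At the other end no member passed 2-fold, but several were above 0 in both cultures. RPS9, which lies at the channel where mRNA enters, had 174 and 150 CPM in the inputs (shControl, then shRBM39) and 254 and 215 CPM in the IPs, with a log2 recovery of 0.55 (0.49 to 0.60) and 0.52 (0.46 to 0.58). RPL3, close to the peptidyl transferase centre, had 825 and 860 CPM in the inputs and 1140 and 1252 CPM in the IPs (0.47 and 0.54). RPS3, also at the mRNA entry, had 660 and 535 CPM in the inputs and 844 and 717 CPM in the IPs (0.36 and 0.42). In these 3 each IP was above each input. RPL19 (0.40 and 0.34), RPL18 (0.43 and 0.27) and RPL8 (0.34 and 0.47) were also above 0 in both.

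**Figure D2:**
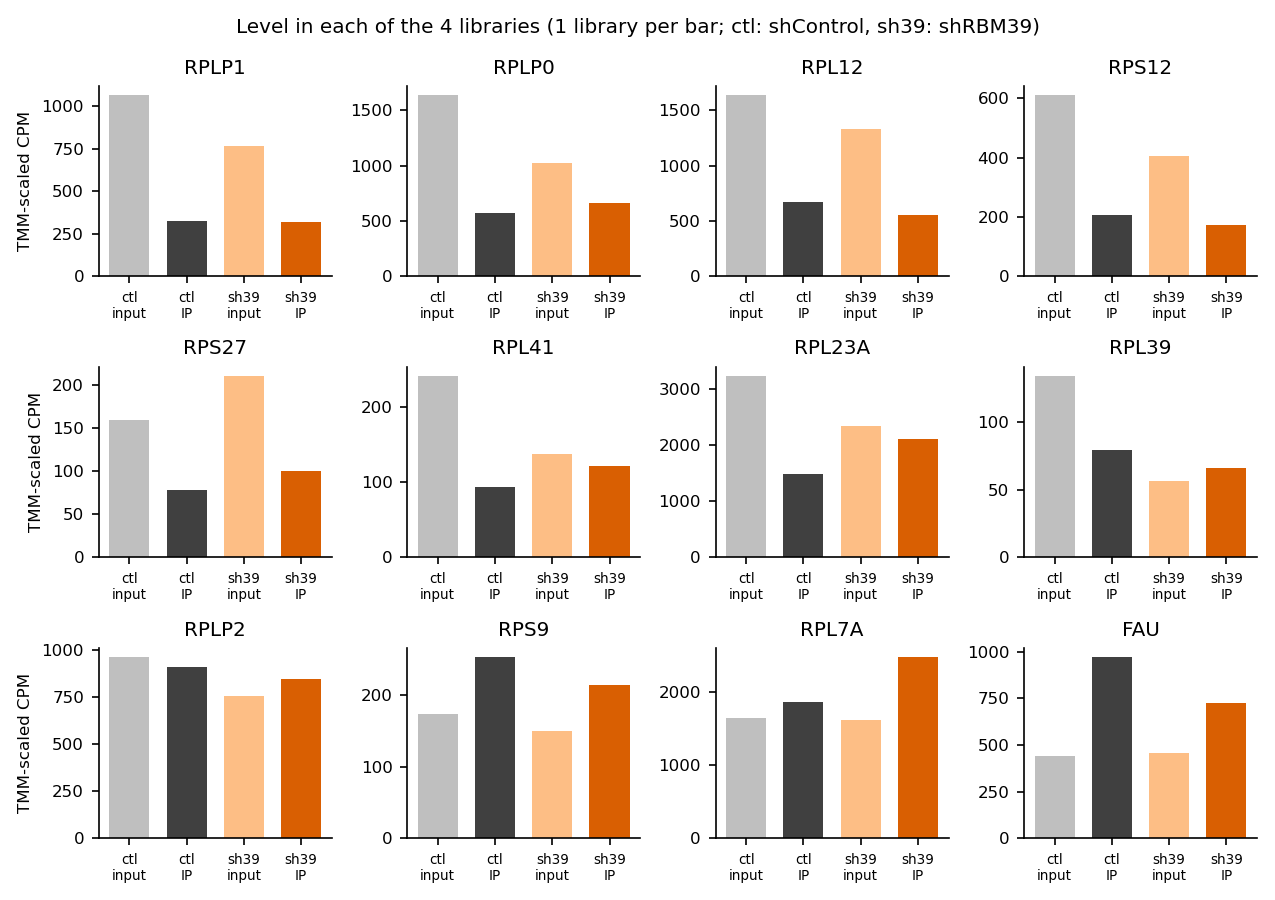
TMM-scaled level (vertical axis, CPM, from 0) of 12 mRNAs in each of the 4 libraries, 1 library per bar, so there is no error bar. RPLP1, RPLP0, RPL12, RPS12, RPS27, RPL41 and RPL23A have both IP bars below both input bars. For RPL41 and RPL23A the gap is mainly in the shControl pair. RPS9, RPL7A and FAU have both IP bars above both inputs.

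In shRBM39 cells 4 members were called lower in the IP, namely RPL12, RPLP1, RPS12 and RPS27, which were also called in shControl cells, and 0 were called higher. The background was 9% lower and 5.3% higher over all features and 5.58% and 2.82% over those from 1000 counts, so the members' share of lower calls is near the background. The median recovery was 0.01, with a range of -1.27 to 0.62, against 0.02 for all features; it turns to -0.11 with total counts, where all features stand at -0.09. Of the highest members, RPL7A, a core protein of the large subunit, had a recovery of 0.62 (0.60 to 0.63), RPL36 0.61 (0.56 to 0.66), RPS15, whose tail reaches the decoding site, 0.60 (0.56 to 0.64), and RPL10, which is added last to the large subunit, 0.46. Below the 4 called members stood RPS20 (-0.76), RPLP0 (-0.63), RPS21 (-0.53) and RPS24 (-0.51).

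Across the 74 members, recovery in the 2 cultures went together, as a description over genes that share the same 4 libraries: Pearson's r was 0.72 and Spearman's rho 0.61, and r was 0.54 without the 7 members called in shControl cells. Over all 19201 features r was 0.64 and rho 0.68, so the members had the higher r and the lower rho. Small subunit mRNAs had r of 0.82 and rho of 0.75 (28 genes), and large subunit mRNAs 0.70 and 0.50 (46 genes). Both counting intervals lay below 0 for 27 members and above 0 for 17, while 17 had intervals on opposite sides. The same counts were not made over all features, so whether the members differ from them in this is not known.

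**Figure D3:**
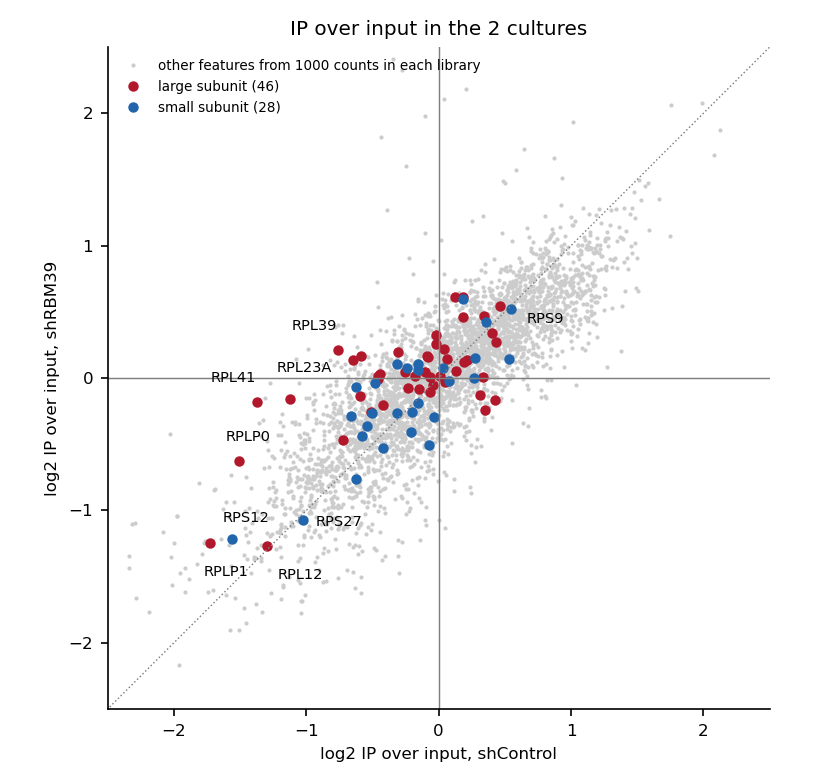
Log2 IP over input in shControl cells (horizontal axis) against shRBM39 cells (vertical axis), 1 point per mRNA. Large subunit members are red, small subunit members blue, other features with at least 1000 counts in each library grey; grey points beyond the axes are not drawn and the dotted line marks equal values. RPLP1, RPS12, RPL12 and RPS27 lie low on both axes, while RPLP0, RPL41 and RPL23A lie low mainly in shControl cells.

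A test of IP against input was made by taking the cultures as replicates (edgeR, quasi-likelihood, 1 residual degree of freedom). At a Benjamini-Hochberg adjusted p under 0.05 over all 19201 features, 10 of the 74 members were lower in the IP and 1, RPS9, was higher. The background was 17.5% lower and 19.1% higher over all features and 22.4% and 24% over those from 1000 counts; the difference from the members' share was not tested. The lower members were RPS12 (edgeR log2 -1.39, adjusted p = 2.4e-05), RPLP1 (-1.49, 3.3e-05), RPS27 (-1.05, 7.4e-05), RPL12 (-1.28, 0.00015), RPLP0 (-1.07, 0.0016), RPS20 (-0.69, 0.0030) and RPL41 (-0.78, 0.0088). With smaller sizes came RPS21 (-0.48, 0.018), RPS18 (-0.48, 0.042) and RPL22 (-0.59, 0.044), of which RPS21 and RPS18 are not called with total counts or with no filter on low counts. All 10 were below 0 in both cultures. RPS9 had an edgeR log2 of 0.53 (adjusted p = 0.016), and that call is lost with total counts. DESeq2 called 12 members lower, 9 of them shared, and 2 higher, against 12.9% lower and 16% higher over the 16223 features it gave an adjusted p and 19.6% and 22.3% over those from 1000 counts, and it did not call RPL41 (adjusted p = 0.38).

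RPS20 (head of the small subunit), RPS21 and RPS18 had smaller but like-sided values. RPS20 had 273 and 213 CPM in the inputs (shControl, then shRBM39) and 177 and 125 CPM in the IPs, RPS21 had 114 and 91.2 CPM in the inputs and 85.0 and 63.2 CPM in the IPs, and RPS18 had 394 and 238 CPM against 249 and 195 CPM. For RPS20 and RPS21 each IP was below each input, whereas the shControl IP of RPS18 stood above the shRBM39 input. RPL22, an RNA-binding protein of the large subunit, had 2229 and 1934 CPM in the inputs and 1351 and 1400 CPM in the IPs, again with no overlap. How many of all features lack such an overlap was not counted.

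Further members with well known roles were not called in either culture. RPL5 and RPL11, which carry 5S ribosomal RNA and bind MDM2 when ribosome assembly fails, differed in side in shControl cells, with a log2 recovery of 0.20 (0.18 to 0.21) for RPL5 and -0.44 (-0.47 to -0.42) for RPL11. RPL5 had 2606 and 2815 CPM in the inputs (shControl, then shRBM39) and 2983 and 3067 CPM in the IPs, and RPL11 had 918 and 608 CPM in the inputs and 676 and 622 CPM in the IPs. RPS6, the substrate of S6 kinase, had a recovery of -0.31 and 0.11, RPS14, lost in the 5q- syndrome, -0.51 and -0.27, and RPS19, the gene most often mutated in Diamond-Blackfan anaemia, 0.07 and -0.02. RPS27A, made as a fusion with ubiquitin, had -0.15 and 0.06, RPL26 had -0.23 and -0.08, and RPSA, which is also known as the laminin receptor precursor, -0.32 and -0.27. Adjusted p in the edgeR test was 0.084 or above for each of these 8.

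The small subunit stood somewhat lower than the large one in the IP ratios. Median log2 recovery in shControl cells was -0.07 for the 46 large subunit and -0.21 for the 28 small subunit members, and in shRBM39 cells it was 0.03 and -0.13. In shControl cells 28 of 46 large and 20 of 28 small subunit members were below 0, and in shRBM39 cells 18 of 46 and 18 of 28. The order of the medians was the same under each of the scalings tried, while the sign of the large subunit's median turned with total counts (0.01 in shControl and -0.09 in shRBM39 cells), with no filter in shControl cells (0.02) and without mitochondrial, 7SK and 7SL RNAs in shRBM39 cells (-0.0080). The subunits overlap over nearly their whole range (-1.73 to 0.47 for the large and -1.56 to 0.55 for the small subunit in shControl cells), and the difference between them was not tested.

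Recovery was then set against properties that the rule had not used. The 45 members with a TOP start had a median of -0.15 in shControl cells with 6 called lower, and the 14 with listed starts of another kind a median of -0.01 with 0 called; in shRBM39 cells the medians were -0.01 and 0.11, with 4 and 0 called. The other member called in shControl cells, RPL23A, had no listed start. A snoRNA lay within the bounds of 28 members, 58 snoRNAs in all, and their median recovery in shControl cells was -0.12 with 3 called lower (RPS12, RPL12 and RPL23A), against -0.15 with 4 called for the 46 others. Recovery in shControl cells had a Pearson's r of 0.21 with the log10 length of the gene on the genome and of 0.03 with the log10 summed count. Of all features 11.3% were called lower in shControl and 9% in shRBM39 cells, and of those from 1000 counts 6.28% and 5.58%. At such shares 0 calls among 14 genes says little, and no difference between these groups was tested. All these values are descriptions over 74 genes of the same libraries.

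The input libraries were compared to ask how the level of these mRNAs differed between the cultures before the antibody was added. Ribosomal protein mRNAs were mostly lower in the shRBM39 input, but by less than 2-fold. The median log2 ratio of shRBM39 over shControl was -0.30 (0.812 times), and 60 of the 74 were below 0, against a median of -0.01 with 51.0% below 0 over all features and 0.11 with 38.9% below 0 over those from 1000 counts. In bulk RNA, fewer cells with an mRNA and less of it per cell cannot be told apart. Large and small subunits had a like shift, with medians of -0.30 and -0.31. Only RPL39 was called lower and 0 members were called higher, against 5.73% lower and 5.1% higher over all features and 0.244% and 3.87% over those from 1000 counts.

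**Figure D4:**
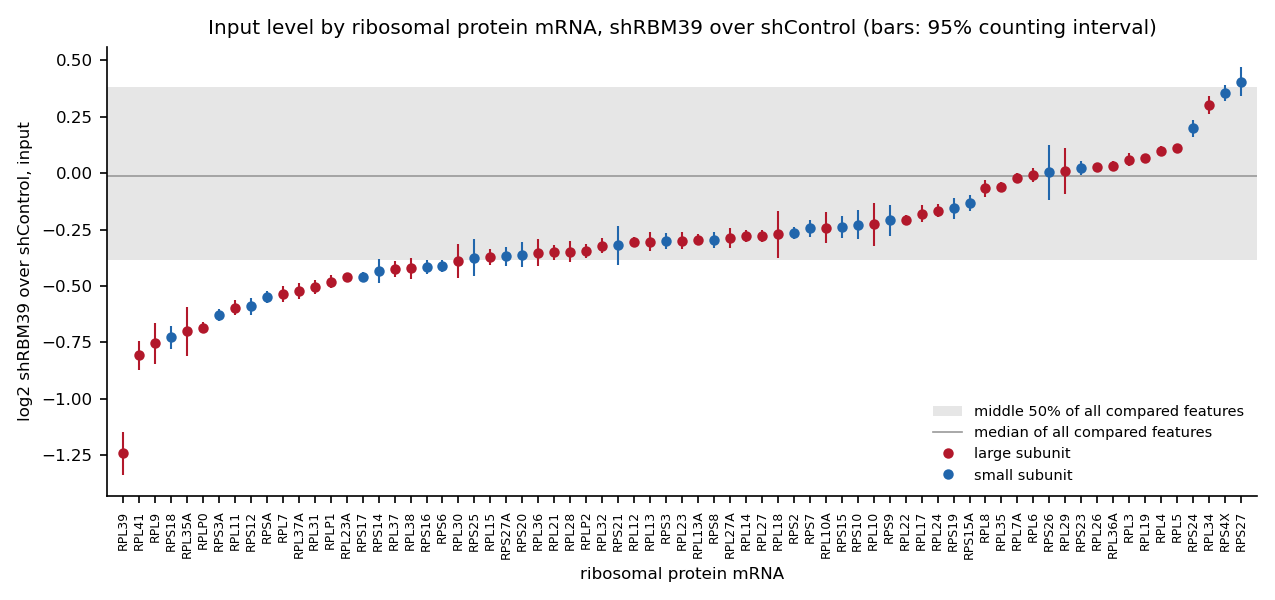
Log2 ratio of shRBM39 over shControl in input (vertical axis) of 71 of the 74 ribosomal protein mRNAs (horizontal axis), in order of size; large subunit red, small subunit blue, bars the 95% counting interval. The grey band holds the middle 50% of all compared features and the line their median of -0.01; 58 of the 71 points lie below 0.

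RPL39, a small protein that lines the peptide tunnel, had the lowest ratio. Its inputs held 134 CPM (shControl) and 56.7 CPM (shRBM39), a log2 ratio of -1.24 (-1.34 to -1.14), while its IPs were closer, at 79.1 and 65.8 CPM. RPL41 followed with -0.81 (-0.87 to -0.74), and RPL9 with -0.75 (-0.85 to -0.66). RPL9 reads are uncertain, since its pseudogenes held 8.15% of the counts of the gene and its copies. RPS18 (-0.73), RPL35A (-0.70) and RPLP0 (-0.68) completed the lowest 6. RPL35A had 83.5 CPM in the shControl input and 51.4 CPM in the shRBM39 input.

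A few members were higher in the shRBM39 input. RPS27 had a ratio of 0.40 (0.34 to 0.47), RPS4X, the X-linked form of its protein, of 0.36 (0.32 to 0.39), RPL34 of 0.30 (0.26 to 0.34), RPS24 of 0.20 and RPL5 of 0.11. RPS4X had 528 CPM in the shControl input and 675 CPM in the shRBM39 input. These 5 differences were under 2-fold.

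The last contrast took the difference of log2 recovery, shRBM39 minus shControl. It uses the same 4 libraries as the comparisons above and is no separate evidence. Only RPL41 was called, as higher (1.19, 1.10 to 1.28), and with total counts it falls just under 2-fold (0.996). The background was 4.39% higher and 2.73% lower over all features and 1.38% and 0.379% over those from 1000 counts. RPL39 (0.98, 0.86 to 1.10), RPL23A (0.97, 0.95 to 0.99), RPLP0 (0.88, 0.85 to 0.92), RPL6 (0.78, 0.74 to 0.82) and RPL7 (0.75, 0.71 to 0.80) came next. RPL6 had close inputs (821 and 816 CPM) and unequal IPs (524 and 897 CPM), whereas RPL39 had unequal inputs and closer IPs.

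Among the lowest differences were those of RPL34 (-0.59, -0.64 to -0.54), RPL29 (-0.44), RPS24 (-0.43) and RPL35 (-0.33). RPL34 had 428 and 527 CPM in the inputs (shControl, then shRBM39) and 544 and 446 CPM in the IPs, so that the order of the cultures turned between input and IP. The median difference over the 74 was 0.15, with 49 above 0, against -0.004 for all features; with total counts it was -0.04 against -0.20, so the members stayed above the general level while the sign turned. Between the IP libraries themselves the median log2 ratio of shRBM39 over shControl was -0.15, with 49 of 74 below 0, against -0.006 with 50.5% below 0 over all features and 0.08 with 41.7% below 0 over those from 1000 counts.

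A list of other ribosomal protein genes and paralogs was set beside the members; it lacks RPS13, RPS28 and RPS29, which the count minimum left out. Of 13 listed, 9 were measured, with a median of 0.40 in shControl and 0.28 in shRBM39 cells. In shControl cells 1 of 9 was called higher and 0 lower, against 7.7% and 11.3% of all features. In shRBM39 cells 0 were called, against 5.3% higher and 9% lower. FAU, which encodes RPS30 as a fusion with a ubiquitin-like protein, had 440 and 457 CPM in the inputs (shControl, then shRBM39) and 972 and 723 CPM in the IPs. Its recovery was 1.14 (1.11 to 1.17) in shControl cells, 2.21 times, and 0.66 (0.63 to 0.69) in shRBM39 cells. RACK1, a scaffold on the head of the small subunit, had 0.40 and 0.41. Of the paralogs, RPL26L1 had 0.74 and 0.38, RPL36AL 0.53 and 0.41, and RPL22L1 -0.13 and -0.43. In the edgeR test FAU (adjusted p = 0.0020) and RPL26L1 (0.0080) were higher, against 19.1% of all features and 24% of those from 1000 counts.

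Other RNAs known for TOP tracts, among them the non-coding snoRNA hosts GAS5 and SNHG1, ranged from -1.16 to 0.88 in shControl cells. The 20 listed had a median of -0.17 in shControl and 0.004 in shRBM39 cells, with 1 and 0 called lower and 0 called higher. Of all features 11.3% and 9% were called lower and 7.7% and 5.3% higher. TPT1, the translationally controlled tumour protein, was the lowest, with 1388 and 1099 CPM in the inputs (shControl, then shRBM39) and 620 and 556 CPM in the IPs (log2 -1.16 and -0.98). The elongation factor EEF2 had 0.88 and 0.65 and the nucleolar protein NPM1 0.75 and 0.77, while EEF1A1 had -0.67 and 0.07. In input, VIM (2.21) and EIF3A (1.48) were called higher in shRBM39 cells, and the list's median was -0.13. The share called higher in input was 5.1% over all features and 3.87% over those from 1000 counts.

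Ribosome assembly factors, which build the subunits but are not part of them, were the next list. Their 26 mRNAs had a median recovery of 0.33 and 0.35 in the 2 cultures. In shControl cells 3 were called higher, namely BOP1 (1.58), PES1 (1.13) and GRWD1 (1.12), and NOP56 (-1.46) was called lower. The share of all features was 7.7% higher and 11.3% lower, and 5.69% and 6.28% from 1000 counts. In shRBM39 cells only BOP1 (1.13) was called higher, against 5.3% higher and 9% lower over all features. The edgeR test called 10 of 26 higher and 1 lower. Its background was 19.1% higher and 17.5% lower over all features and 24% and 22.4% over those from 1000 counts. Of the 20 other TOP RNAs it called 4 higher and 3 lower. Between inputs their median was 0.48, against -0.30 for the ribosomal proteins they assemble into subunits. GRWD1, PES1 and NCL (1.03, 1.03 and 1.02) were called higher in shRBM39 cells, against 5.1% over all features and 3.87% over those from 1000 counts. These 3 lie close to the threshold, and their intervals reach under 2-fold (0.94 to 1.11, 0.97 to 1.10 and 0.999 to 1.05).

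**Figure D5:**
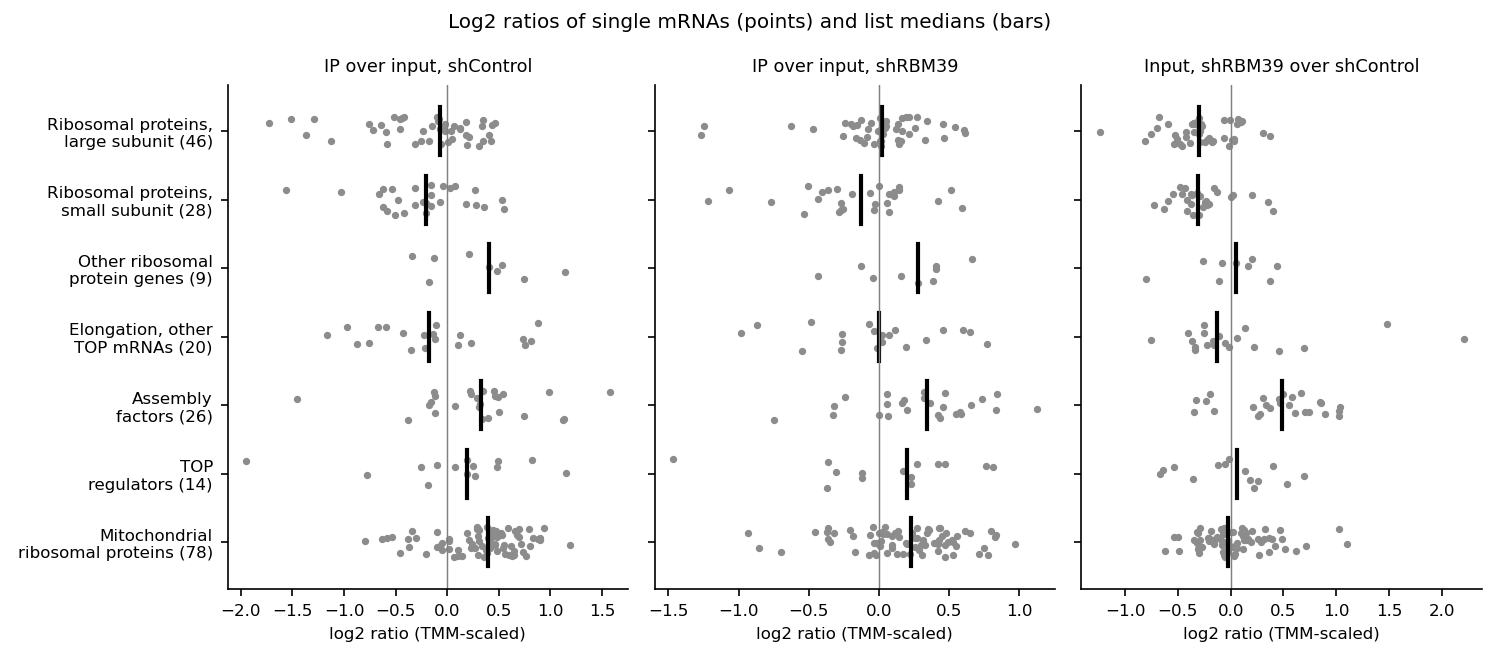
Log2 ratios (horizontal axes, TMM-scaled) of single mRNAs (points) and list medians (bars) for 7 gene lists (rows), in 3 comparisons. In the input panel the medians of both ribosomal protein rows are near -0.30 and that of the assembly factors is 0.48.

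The 78 mRNAs of mitochondrial ribosomal proteins, which form another ribosome, had medians of 0.39 in shControl and 0.23 in shRBM39 cells, with 1 and 0 called higher and 0 lower. Beside this list and the next, 7.7% and 5.3% of all features were called higher and 11.3% and 9% lower. Between inputs the median of the 78 was -0.02, with 2 called higher in shRBM39 cells, against 5.1% of all features. The edgeR test called 29 of these 78 higher and 4 lower. Its background was 19.1% higher and 17.5% lower over all features and 24% and 22.4% over those from 1000 counts. Of the 14 regulators of TOP mRNA translation, EIF4EBP2, a repressor of the cap-binding factor, was called lower in both cultures (-1.95 and -1.47), and RPTOR, a subunit of mTOR complex 1, higher in shControl cells (1.15, and 0.82 in shRBM39 cells). Their median was 0.19 and 0.20. None of these differences between lists was tested.

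Members close to the minimum of 1000 counts include RPL39, the member called lower in input. The 5 lowest by their smallest count were RPS26 (1080), RPL35A (1118), RPL39 (1233), RPL18 (1427) and RPL29 (1546), with a recovery in shControl cells of -0.04, -0.18, -0.76, 0.43 and 0.31. Just outside were RPS27L (919), RPS13 (548), RPS28 (423), RPS29 (420) and RPL39L (286), with -0.18, -0.15, -0.20, -0.59 and -0.34. The remaining symbols of the pattern, RPL3L, RPL10L and RPS10L, had at most 18 counts in any library and were not compared.

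Some members cannot be told from their neighbours or copies. RPL17 had 11763 counts in the shControl input and the read-through feature RPL17-C18orf32 11693, and RPL36A had 32723 against 32888 for RPL36A-HNRNPH2, so reads of these genes and of the read-through features cannot be told apart. RPS10 had 4310 counts and RPS10-NUDT3 7820. The table holds 988 pseudogenes named for the members, which together took 0.0427%, 0.0311%, 0.0318% and 0.0261% of the counts in the order shControl input and IP, shRBM39 input and IP. The share of a member's counts held by its copies was largest for RPL9, RPS2 (7.74%), RPL23A, RPS26 (3.59%) and RPSA (2.15%). Adding the copies to their members left the counts of members called in the 4 ratios and in the edgeR test as they were.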

How the data were processed

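Per the labels' protocols, RNA was immunoprecipitated with a commercial RIP kit and an RBM39 antibody. The authors deposited 1 table of counts for gene symbols, whole numbers with no normalization. The submitters' processing notes list HISAT2 2.0.4, cutadapt 1.9 and StringTie 1.3.4d, with the build hg38. The counting program and its strand setting were not given in the sources used here, so antisense reads cannot be told apart. All 4 columns were matched to samples by name. Of counts from 3 to 6, 71.4% to 75.6% were even, and if both mates of a pair were counted, the intervals are too narrow. The 13 rows with date-like names (0.0205% to 0.0335% of counts) were left out.

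Log2 ratios used TMM (edgeR 4.0.16, R 4.3.3; factors 1.03, 1.09, 0.979 and 0.904 for shControl input and IP, shRBM39 input and IP) after adding 0.5, with exact conditional 95% intervals (normal for the difference). The edgeR model was additive in culture and fraction; a true difference between cultures counts as error. The alternative test was DESeq2 1.42.0. The ratios and the edgeR test, not DESeq2, were tested on simulated data. The ratio between IPs was added after the values were seen, as a description. Nothing says whether the libraries of a hairpin came from 1 dish or from more.

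The members, lists and tests were chosen with earlier results of these data known. Named were RPLP0 to RPLP2, RPSA, the 6 highest and lowest members per comparison, the 5 smallest p per direction in the edgeR test, the 5 members on each side of the count minimum, the 5 with most pseudogene counts, well known members, and up to 4 genes per list, with others of the same kind named after their values were seen. Gene positions and start sequences are RefSeq's on GRCh38; all 74 members matched by symbol. A few genes are not reported here by name, though counts and medians include them. Transcript lengths were not used here, so levels are not compared between genes.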

Additional observations from a re-analysis of the deposited data

Results flagged for a closer look

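Recovery lay on opposite sides of 0 in the 2 cultures, with both counting intervals away from 0, for 17 members. With 1 library per group this difference was not tested, and the share of all features with opposite sides was not counted. Values are given for 15 of the 17 members. In 12 of these recovery was below 0 in shControl and above 0 in shRBM39 cells, with differences (log2, shRBM39 minus shControl) of 0.98 for RPL39, 0.78 for RPL6, 0.75 for RPL7, 0.51 for RPL27, 0.48 for RPL11, 0.42 for RPS6, 0.30 for RPL4, 0.26 for RPS16, 0.26 for RPL13A, 0.24 for RPLP2, 0.22 for RPS27A and 0.15 for RPL27A. In the other 3 the sides were turned, with -0.59 for RPL34, -0.44 for RPL29 and -0.0814 for RPL14. A sign near 0 depends on the scaling, which moves all members together.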

How the results depend on the processing

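The settings were total counts, DESeq2 size factors, TMM without mitochondrial, 7SK and 7SL RNAs, no filter, 1 added to each count, halved counts, pseudogenes added, and members from 100 counts. The median recovery of -0.15 in shControl cells was -0.0704 with total counts and -0.0587 with no filter. That of 0.01 in shRBM39 cells was -0.11 with total counts, -0.0267 without mitochondrial, 7SK and 7SL RNAs, 0.13 with no filter and -0.000137 with members from 100 counts. The median difference of 0.15 was -0.0432 with total counts and 0.0939 without the abundant RNAs, and the input median of -0.30 was -0.38 with total counts. Total counts moved the median of all features to 0.07, -0.09, -0.20 and -0.09 in shControl IP, shRBM39 IP, their difference and input. Counts of lower calls stayed within 1.5 times; in the edgeR test 8 of the 10 lower members were shared with total counts and with no filter, without RPS18 and RPS21. The 1 member with a higher difference became 0 with total counts and 2 with no filter (RPL41 and RPL39). The 1 member higher in the edgeR test became 2 with DESeq2, 0 with total counts and 11 with no filter; the cause was not tested. RPS27 fell under 2-fold with total counts in shControl cells, and with no filter in both cultures (-0.93 and -0.95). The edgeR test sets input and IP of a culture side by side as a block. No paired analysis was possible by replicate number, because each group has 1 library. Each culture alone gives a ratio with no test. Depth sets the counting intervals, and 13 members had an interval that holds 0 in a culture or both.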
